A study of Mus musculus with 9 samples.

Results

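The comparison described here sets intestinal epithelial cells (IECs) of mice given the glycolipid α-galactosylceramide (αGalCer) 18 h earlier against IECs of mice given phosphate-buffered saline (PBS) and labelled with the same time. It holds 6 of the 9 libraries of the series, 3 per group, and all genes of the count table that passed a filter on low counts, 18933 of 29288. All mice were female, wild type and of the C57BL/6J strain, and their age is not given in the labels. The control group received PBS, and the 18h-αGal group received 2 µg of αGalCer by intraperitoneal injection. Crypt cells of the proximal small intestine were sorted as live EpCAM+ cells that were negative for Ter119, CD31 and CD45, so the RNA came from a mixture of stem, progenitor, absorptive and secretory epithelial cells. Each group had 3 mice and has 3 libraries numbered as replicates, which were taken as 1 mouse each, although the labels do not tie a library to an animal. In such bulk samples, more cells of a type and more RNA per cell cannot be told apart.

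αGalCer is presented by CD1d to invariant natural killer T (NKT) cells, which respond within hours by releasing cytokines, among them interferons (IFNs) and interleukins. IFN-γ signals through its receptor and the kinases JAK1 and JAK2 to transcription factors of the STAT family, which bind GAS sites, while type I and III IFNs act through a complex of STAT proteins with IRF9 that binds ISRE sites. The genes induced in this way include GTPases that attack pathogen vacuoles, the machinery that presents peptides on major histocompatibility complex (MHC) molecules, and mediators of cell death. Crypt epithelium is renewed by Lgr5+ stem cells, and its absorptive cells carry enzymes that take up nutrients and clear foreign compounds.

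At 18 h, 1128 of the 18933 tested genes were called, which means an adjusted p under 0.05 (edgeR, quasi-likelihood fit, Benjamini-Hochberg). These were 619 genes that were higher in 18h-αGal than in control IECs (3.27% of tested genes) and 509 that were lower (2.69%), or 5.96% in either direction. With upper-quartile scaling the split was 479 higher and 670 lower. Of the higher genes, 445 differed by under 1 on the log2 scale, 117 by 1 to 2 and 57 by 2 or more. Of the lower genes, 257 differed by under 1, 167 by 1 to 2 and 85 by 2 or more. Fitted changes beyond 4 include genes with no count in any library of a group, 5 of the higher and 16 of the lower genes, and for these the fitted size depends on the prior count. The 6 libraries did not overlap between the groups for 618 of the higher and 503 of the lower genes, so such a separation adds little to a call. Protein-coding genes made up 593 of the higher and 454 of the lower genes, and 13739 of the 18933 tested genes. Genes that were called higher took between 5.19% and 5.26% of all counts in the controls and between 8.33% and 9.35% in the 18h-αGal libraries. Genes that were called lower took between 5.43% and 6.33% in the controls and between 3.36% and 3.61% in the 18h-αGal libraries.

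**Figure D1:**
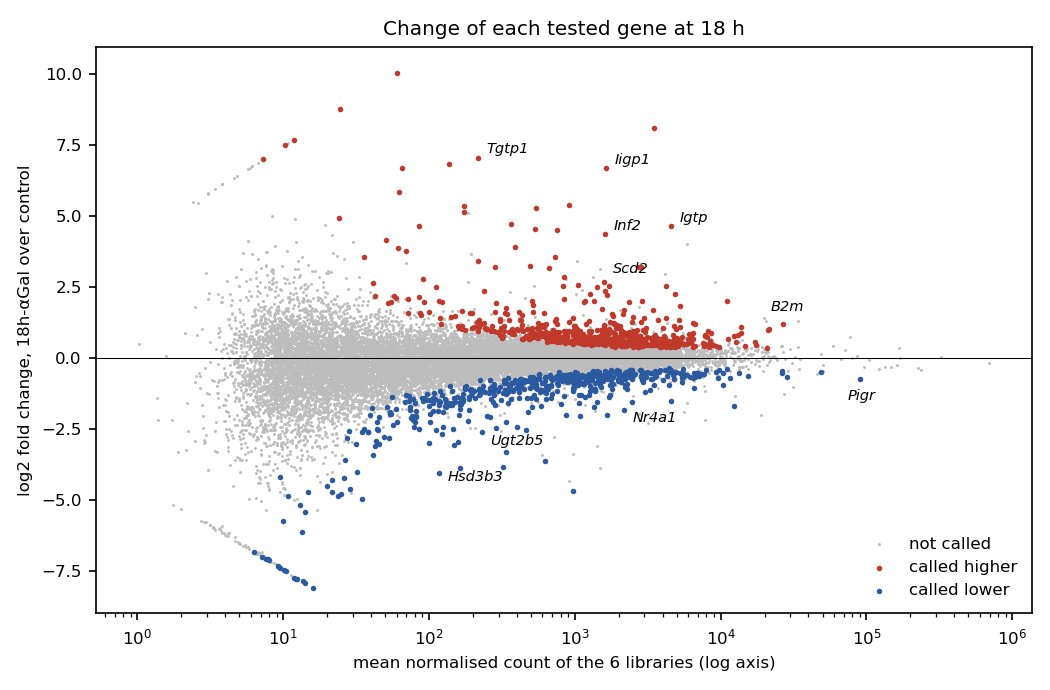
Each point is a tested gene, placed by its mean normalised count over the 6 libraries (log axis) and by its log2 fold change in 18h-αGal over control IECs. Red points are the 619 genes called higher, blue points the 509 called lower and grey points the rest. The straight rows of points at the far left hold genes with no count in 1 group.

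Library totals ranged from 8887861 counts in control replicate 3 to 32722293 in control replicate 1. A count of 3, taken as the floor, corresponded to 0.338 CPM (counts scaled to the same total in every library) in the smallest library and to 0.0917 CPM in the largest. Control replicate 3 also stood apart from the other libraries on the second principal component, at -46.15, where the other 5 libraries of this comparison lay between 0.01 and 8.52. It had the highest control value in 36.8% of all tested genes, but in 82.1% of the tested genes of the interferon-linked lists described below, and its part in the results is shown by leaving it out. Without control replicate 3, 1556 genes were called. Leaving out 18h-αGal replicate 2 gave the lowest number, 432, and 346 of the 1128 genes (187 higher and 159 lower) were called in all 6 fits that each left out 1 library. Where a named gene lost its call in any of those fits, this is given beside it.

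The sorted cells carried epithelial markers at high and similar levels in both groups. Per kilobase of exon and scaled to an equal total (TPM), Epcam lay between 1289.7 and 1750.7 TPM and Krt8 between 1889.7 and 2008 TPM in the 6 libraries. None of the 19 tested genes of epithelial identity was called, and Epcam had 16913, 18081 and 21147 normalised counts in the controls and 20339, 22371 and 22719 in the 18h-αGal libraries (log2 fold change 0.23 ± 0.11, adjusted p = 0.259). Markers of other cells were low. Ptprc, which encodes CD45, lay between 0.136 and 0.426 TPM, and Nkg7 had no count in any of the 6 libraries. Cd3e had between 0 and 2 raw counts. None of the 8 tested T and NK cell markers, the 5 B and plasma cell markers, the 14 myeloid markers and the 16 markers of stroma, endothelium, nerve and red cells was called. The summed level of the T and NK cell list was between 14.96 and 25.1 CPM in the controls and between 9.5 and 15.2 CPM in the 18h-αGal libraries, and that of the myeloid list was between 36.8 and 51.8 CPM in the controls and between 52.4 and 66.8 CPM in the 18h-αGal libraries.

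Genes that IFNs are known to induce made up much of the strongest rise. Of 151 tested genes in 8 interferon-linked lists, 62 were higher (41.1%, against 3.27% of all tested genes) and 2 were lower, and 27 of the 57 genes that were higher by 2 or more on the log2 scale were among them. In 51 of these 62 genes control replicate 3 had the highest value of the 3 controls.

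The immunity-related GTPases (IRGs) coat and disrupt the vacuoles of intracellular pathogens. 9 of 12 tested IRG genes were higher, and the list median of the log2 fold change was 4.58, against -0.03 for all tested genes. When 1 library was left out, the number called ranged from 6 (without 18h-αGal replicate 2) to 10 (without control replicate 3). Irgm1, a regulator of the other IRGs, had 1038, 1001 and 1740.3 normalised counts in the controls and 6623, 7967 and 6856 in the 18h-αGal libraries (log2 fold change 2.52 ± 0.21, adjusted p = 5.24e-05). Iigp1, an effector of the family, had 37.6, 12.3 and 52.3 normalised counts in the controls and 3795, 4045 and 1876 in the 18h-αGal libraries (log2 fold change 6.69 ± 0.65, adjusted p = 0.00201). Both genes were higher in every 18h-αGal library than in every control, as were 618 of the 619 genes called higher. Igtp, also known as Irgm3, had 219.7, 99.7 and 811 normalised counts in the controls and 8409, 8821 and 9198 in the 18h-αGal libraries (log2 fold change 4.65 ± 0.78, adjusted p = 0.0226), and among the controls it was highest in replicate 3. Igtp was not called without control replicate 1 or 18h-αGal replicates 1, 2 or 3 (adjusted p up to 0.0871). Tgtp2 had 19.97, 17.1 and 57.1 normalised counts in the controls and 1161, 1059 and 933 in the 18h-αGal libraries (log2 fold change 5.29 ± 0.48, adjusted p = 0.000131), and Gm12185 had 24.1, 77.8 and 105 normalised counts in the controls and 1721, 1708 and 886 in the 18h-αGal libraries (log2 fold change 4.52 ± 0.71, adjusted p = 0.0135). Gm12185 was not called without control replicate 2 or 18h-αGal replicate 2 (adjusted p up to 0.0569). Of the 50-base words in Tgtp2 transcripts, 86.6% also occur in other genes, most in Tgtp1, so it is uncertain which gene of the pair a read came from.

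The guanylate-binding proteins (GBPs) are larger GTPases that act on the same vacuoles. 7 of 10 were higher, with a list median of 4.34, and the libraries of the groups did not overlap for any of the 10. Higher without such an overlap were 11.5% of all tested genes. Fits that left out 1 library called from 5 (without 18h-αGal replicate 1) to 8 (without control replicate 3) members. Gbp7 had 142, 155 and 338 normalised counts in the controls and 1468, 1646 and 1276 in the 18h-αGal libraries (log2 fold change 2.85 ± 0.27, adjusted p = 6.65e-05). Gbp2 had 21.1, 62.6 and 52.3 normalised counts in the controls and 1099.6, 1246 and 695 in the 18h-αGal libraries (log2 fold change 4.55 ± 0.47, adjusted p = 0.00031), and Gbp6 had 4.7, 15.2 and 9.51 normalised counts in the controls and 334, 337 and 344 in the 18h-αGal libraries (log2 fold change 5.15 ± 0.49, adjusted p = 5.24e-05). Gbp2 and Gbp6 were low in every control and many times higher in each 18h-αGal library. Gbp9 had 18.2, 22.8 and 30.9 normalised counts in the controls and 239, 155 and 82.8 in the 18h-αGal libraries (log2 fold change 2.79 ± 0.50, adjusted p = 0.00478). Gbp5 had 1.18, 7.59 and 9.51 normalised counts in the controls and 148, 105 and 30.4 in the 18h-αGal libraries (log2 fold change 4.14 ± 0.87, adjusted p = 0.0119), with 18h-αGal replicate 3 lowest of its group. Gbp5 was not called without control replicate 1 or 18h-αGal replicates 1 or 2 (adjusted p up to 0.0607). Of the words of Gbp6, 61.6% occur in other annotated genes, most in Gm43302.

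Genes that serve presentation on MHC class I were higher at several steps of the route. Of 14 genes that supply peptides to class I molecules, 13 were higher and none was lower, with a median of 1.02. With 1 library left out, the count ran from 8 (without 18h-αGal replicate 2) to 14 (without control replicate 3). The immunoproteasome subunit gene Psmb9 had 399, 416 and 834 normalised counts in the controls and 1917, 2208 and 2299 in the 18h-αGal libraries (log2 fold change 1.99 ± 0.25, adjusted p = 0.00084). Psmb8, another immunoproteasome subunit gene, had 122, 130.0 and 383 normalised counts in the controls and 728, 858 and 831 in the 18h-αGal libraries (log2 fold change 1.999 ± 0.37, adjusted p = 0.00974). Tap1, a subunit of the transporter that moves peptides into the endoplasmic reticulum, had 1333, 992 and 2834 normalised counts in the controls and 7422, 8474 and 8258 in the 18h-αGal libraries (log2 fold change 2.25 ± 0.38, adjusted p = 0.0166). Tap1 was not called without control replicate 1 or 18h-αGal replicates 2 or 3 (adjusted p up to 0.0678). Tapbp, which encodes the loading factor tapasin, had 2938, 2453 and 4738 normalised counts in the controls and 6987, 6934 and 7374 in the 18h-αGal libraries (log2 fold change 1.09 ± 0.19, adjusted p = 0.0051), and Tapbpl, a related peptide editor, had 639.6, 552 and 763 normalised counts in the controls and 1428, 1406 and 1199 in the 18h-αGal libraries (log2 fold change 1.06 ± 0.16, adjusted p = 0.00161). The chaperone genes Calr and Pdia3 belong to this list and to that of the unfolded protein response. Exons of Psmb9 and Tap1 overlap on opposite strands, and 41.0% of the words of Tapbp occur in other genes.

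Of 17 tested class I genes with B2m, 7 were higher and none lower (median 1.18). B2m, the shared light chain, had 13671, 11386 and 24297 normalised counts in the controls and 35771, 38525 and 38222 in the 18h-αGal libraries (log2 fold change 1.20 ± 0.24, adjusted p = 0.0159). B2m was not called without control replicate 1 or 18h-αGal replicates 2 or 3 (adjusted p up to 0.0733). The heavy chain gene H2-K1 had 3382, 3097 and 5882 normalised counts in the controls and 9780.2, 8627 and 9419.7 in the 18h-αGal libraries (log2 fold change 1.19 ± 0.21, adjusted p = 0.00678), and H2-D1 had 3019, 2937 and 5844 normalised counts in the controls and 9032, 9205 and 9056 in the 18h-αGal libraries (log2 fold change 1.22 ± 0.23, adjusted p = 0.013). H2-D1 was not called without 18h-αGal replicates 2 or 3 (adjusted p up to 0.0569). In all 3 of these genes the level of control replicate 3 lay between those of the other controls and the 18h-αGal libraries. The class Ib genes H2-Q4 and H2-Q6 had log2 fold changes of 0.94 ± 0.20 (adjusted p = 0.0146) and 3.23 ± 0.50 (adjusted p = 0.00705). H2-Q4 was not called without control replicate 1 or 18h-αGal replicate 2 (adjusted p up to 0.0817), and H2-Q6 was not called without control replicate 1 (adjusted p up to 0.0505). Between 22.9% and 42.5% of the words of H2-K1, H2-D1, H2-Q4, H2-Q5 and H2-Q6 occur in other genes. The number of class I genes called ranged from 2 (without 18h-αGal replicate 2) to 10 (without control replicate 3) when 1 library was left out.

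The rise in proteasome genes was not limited to the immunoproteasome. The 37 tested genes of the Psma to Psmd families were a set chosen after the values were seen. Of these, 28 were higher (75.7%, against 3.27% of all tested genes) and none was lower, with a median of 0.70. All 37 had a fitted change above 0. Summed over the family, the level was between 1822 and 1890.5 CPM in the controls and between 2921 and 3306 CPM in the 18h-αGal libraries. Psma1, a constitutive core subunit gene, had 1716, 1694 and 2011 normalised counts in the controls and 3303, 3719.8 and 3521 in the 18h-αGal libraries (log2 fold change 0.97 ± 0.12, adjusted p = 0.000328). In leave-one-out fits this count ranged from 18 (without 18h-αGal replicate 2) to 28 (without control replicate 3).

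For 7 of 10 tested MHC class II genes every 18h-αGal library lay above every control, which also held for 11.5% of all tested genes. The controls differed widely among themselves, and 3 of the 10 genes passed the test. Ciita, the transactivator of class II transcription, had 384, 319.9 and 865 normalised counts in the controls and 2861, 2950.0 and 2982 in the 18h-αGal libraries (log2 fold change 2.53 ± 0.35, adjusted p = 0.005). H2-Eb1, a class II β chain gene, had 243, 284 and 1210.1 normalised counts in the controls and 5488, 4888 and 4824 in the 18h-αGal libraries (log2 fold change 3.20 ± 0.66, adjusted p = 0.0435), and H2-DMa, which encodes a chain of the peptide exchange factor, had 245, 391 and 989 normalised counts in the controls and 2681, 3019 and 2361 in the 18h-αGal libraries (log2 fold change 2.37 ± 0.47, adjusted p = 0.0295). H2-Eb1 was not called without control replicates 1 or 2 or 18h-αGal replicates 1, 2 or 3 (adjusted p up to 0.127), and H2-DMa was not called without control replicate 2 or 18h-αGal replicates 1, 2 or 3 (adjusted p up to 0.111). These were the 3 of 10 tested members called (30%, against 3.27% of all tested genes called higher), with a list median of 2.74. Cd74, H2-Aa and H2-Ab1, named after their values were seen, did not pass. H2-Aa had 129, 235 and 1788 normalised counts in the controls and 11052, 10675 and 11415 in the 18h-αGal libraries (log2 fold change 4.03 ± 1.04, adjusted p = 0.0832). Cd74, the invariant chain, had 1033, 1179 and 5261 normalised counts in the controls and 15577, 15018 and 16704 in the 18h-αGal libraries (log2 fold change 2.69 ± 0.70, adjusted p = 0.0833). H2-Ab1 had 460.5, 435 and 2052 normalised counts in the controls and 7140.1, 6833 and 8153 in the 18h-αGal libraries (log2 fold change 2.96 ± 0.67, adjusted p = 0.0572). In each of these genes control replicate 3 was several times above the other controls and still below every 18h-αGal library. Omission of single libraries gave counts from 1 (without 18h-αGal replicate 1) to 8 (without control replicate 3). Exons of H2-Eb1 and H2-Aa overlap on opposite strands, as do those of Ciita and Dexi and those of H2-DMa and Brd2.

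Among receptors, transcription factors and feedback regulators of IFN signalling, 6 of 28 tested genes were higher and 2 lower, with a list median of 0.13. Irf8, a transcription factor that cooperates with IRF1, had 1835, 2171 and 3067 normalised counts in the controls and 5598, 6038 and 6793 in the 18h-αGal libraries (log2 fold change 1.39 ± 0.20, adjusted p = 0.00204), and Irf1 had 1634, 2214 and 2434 normalised counts in the controls and 3443, 3651 and 3473 in the 18h-αGal libraries (log2 fold change 0.76 ± 0.16, adjusted p = 0.0135). Irf1 was not called without control replicate 1 or 18h-αGal replicate 2 (adjusted p up to 0.0763). Stat2 had 597, 599.9 and 1747 normalised counts in the controls and 2699, 3133 and 3492 in the 18h-αGal libraries (log2 fold change 1.70 ± 0.43, adjusted p = 0.067) and did not pass the test. Among feedback regulators, Socs1, an inhibitor of JAK kinases, had 187, 144 and 162 normalised counts in the controls and 469, 449 and 571 in the 18h-αGal libraries (log2 fold change 1.597 ± 0.22, adjusted p = 0.00106), whereas Socs2 had 2477, 2221 and 2399 normalised counts in the controls and 1629, 1422 and 1711 in the 18h-αGal libraries (log2 fold change -0.57 ± 0.12, adjusted p = 0.00974). Socs2 was not called without control replicate 1 or 18h-αGal replicate 2 (adjusted p up to 0.0685). Socs3, which restrains signalling by STAT3, had 479.8, 896 and 818 normalised counts in the controls and 241, 421 and 379 in the 18h-αGal libraries (log2 fold change -1.07 ± 0.25, adjusted p = 0.0238). Socs3 was not called without control replicate 2 or 18h-αGal replicate 1 (adjusted p up to 0.0918). The groups did not overlap for any of these 6 genes. Of all tested genes, 11.5% were higher and 12.3% lower without such an overlap. Batf2 and Usp18 were also higher, with log2 fold changes of 1.96 ± 0.40 (adjusted p = 0.0238) and 2.35 ± 0.56 (adjusted p = 0.0316). Batf2 was not called without control replicate 1 or 18h-αGal replicates 2 or 3 (adjusted p up to 0.101), and Usp18 was not called without control replicates 1 or 2 or 18h-αGal replicates 1, 2 or 3 (adjusted p up to 0.112). Irf1 overlaps Gm17334 on the opposite strand, and 38.2% of its words occur in other genes. Calls of higher genes numbered from 3 (without 18h-αGal replicate 2) to 9 (without control replicate 3) when 1 library was left out.

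A smaller share of the antiviral genes passed the test. Of 34 tested, 9 were higher (26.5%, against 3.27% of all tested genes) and none lower. Of the 34, 31 were above 0, against 47.6% of all tested genes, and the median was 1.33. Ifi47, an IRG-like GTPase, had 308, 206 and 402 normalised counts in the controls and 1809, 1909.7 and 1625 in the 18h-αGal libraries (log2 fold change 2.57 ± 0.21, adjusted p = 2.73e-05). Samhd1, which depletes the nucleotides that viruses need, had 1321, 1489 and 2161 normalised counts in the controls and 4462, 5430.1 and 5901 in the 18h-αGal libraries (log2 fold change 1.68 ± 0.16, adjusted p = 5.24e-05). Bst2, which encodes the virion-retaining protein tetherin, had 46.99, 51.3 and 73.7 normalised counts in the controls and 441, 775 and 323 in the 18h-αGal libraries (log2 fold change 3.21 ± 0.34, adjusted p = 0.000124). Ifit2 had 24.7, 18.98 and 78.5 normalised counts in the controls and 484, 449 and 240.1 in the 18h-αGal libraries (log2 fold change 3.43 ± 0.52, adjusted p = 0.0024), and Eif2ak2, the kinase that senses double-stranded RNA, had 845, 875 and 1353 normalised counts in the controls and 1992, 1988 and 1963 in the 18h-αGal libraries (log2 fold change 0.97 ± 0.16, adjusted p = 0.00285). The groups did not overlap for any of these 5 genes, as for 618 of the 619 genes called higher. When 1 library was left out, the number called ranged from 6 (without control replicate 1) to 26 (without control replicate 3).

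Of 28 other IFN effectors, of which Psmb8 and Tap1 also stand in the peptide supply list, 10 were higher and none lower. Wars1, the tryptophanyl-tRNA synthetase gene, had 2176, 2604 and 2247 normalised counts in the controls and 9164, 9534 and 6112 in the 18h-αGal libraries (log2 fold change 1.83 ± 0.16, adjusted p = 4.9e-05). Lgals9, which encodes galectin-9, had 12272, 11507 and 18953 normalised counts in the controls and 28236, 30985 and 26942 in the 18h-αGal libraries (log2 fold change 1.02 ± 0.16, adjusted p = 0.00235), and Lgals3bp, which encodes a galectin-binding protein, had 5921, 4983 and 7322 normalised counts in the controls and 10774, 11758 and 11033 in the 18h-αGal libraries (log2 fold change 0.89 ± 0.13, adjusted p = 0.00137). Pml, the scaffold of nuclear bodies, had 1618, 1355 and 1398 normalised counts in the controls and 2170.3, 2328 and 2168 in the 18h-αGal libraries (log2 fold change 0.61 ± 0.12, adjusted p = 0.00672). Fits that left out 1 library called from 5 (without 18h-αGal replicate 2) to 20 (without control replicate 3) members.

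**Figure D2:**
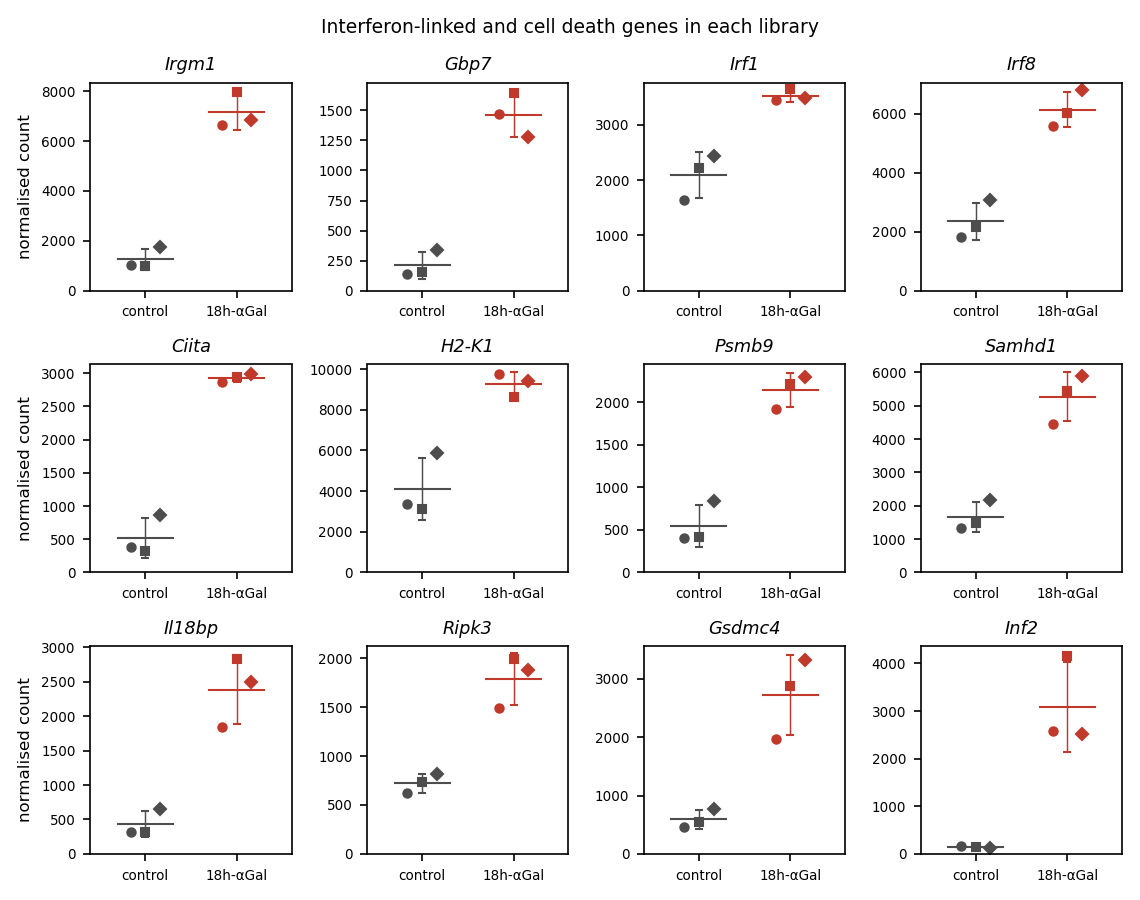
Normalised counts of 12 genes in each library, with circles, squares and diamonds for replicates 1, 2 and 3 of a group, a line for the group mean and bars for the SD (n = 3). Grey marks controls and red marks 18h-αGal libraries, and all axes start at 0. The 18h-αGal libraries lie above the controls in every panel, and control replicate 3 is the highest control in all of them but that of Inf2.

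The promoters of these genes were searched for the letters that STAT and IRF complexes bind. Promoters (300 bases, from 250 before to 50 after the transcription start) were taken from RefSeq on build GRCm38.p6. Of the 18923 distinct names of tested genes, in which an ID stood in for a missing symbol, 11654 had an entry. The letters TTCNNTTTC, the core of an ISRE, occurred on either strand in the promoters of 38.3% of the 47 called interferon-linked genes with an entry, in 15.5% of all 478 genes called higher, in 7.40% of the 365 called lower and in 8.37% of tested genes. The letters TTCNNNGAA of a GAS site occurred in 34.0%, 10%, 11.2% and 8.25% of the same groups. Over all 27025 genes with an entry, the shares were 9.76% and 9.55%. Such a match is a description of letters and not of binding, and matches of either motif may overlap each other. The share among interferon-linked genes that were not called was not computed, so these shares do not tie the letters to the rise. Examples are shown with 20 bases on either side, read along the strand of the gene, with the matching letters in capitals. The first 5 carry ISRE letters and belong to genes that were higher, of which Irgm1 and Igtp are both IRGs, and in all but Gbp2 the letters lie on the opposite strand.
Irgm1 (chr11:48871416-48871464, minus strand): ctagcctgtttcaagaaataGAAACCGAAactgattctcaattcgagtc
Igtp (chr11:58199502-58199550, plus strand): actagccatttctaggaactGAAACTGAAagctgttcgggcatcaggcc
Gbp2 (chr3:142620585-142620633, plus strand): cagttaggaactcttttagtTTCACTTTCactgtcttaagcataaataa
Bst2 (chr8:71537568-71537616, minus strand): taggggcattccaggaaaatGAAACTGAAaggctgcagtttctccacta
Cxcl9 (chr5:92328226-92328274, minus strand): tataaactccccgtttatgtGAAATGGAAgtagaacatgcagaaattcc
The next 3 carry GAS letters and belong to an adhesion molecule gene and to transcription factor genes.
Irf1 (chr11:53769904-53769952, plus strand): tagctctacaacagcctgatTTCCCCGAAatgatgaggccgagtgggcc
Irf8 (chr8:120736167-120736215, plus strand): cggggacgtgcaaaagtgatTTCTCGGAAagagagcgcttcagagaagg
Icam1 (chr9:21015878-21015926, plus strand): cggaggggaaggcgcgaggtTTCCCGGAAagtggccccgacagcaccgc

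Of 20 tested chemokine and cytokine genes, 3 were higher (15%, against 3.27% of all tested genes) and 2 lower (10%, against 2.69%). The number of higher genes was the same in each fit that left out a library. Cxcl9, which attracts T cells through CXCR3, had 0, 5.7 and 0 normalised counts in the controls and 83.9, 154 and 129.7 in the 18h-αGal libraries (log2 fold change 5.85 ± 0.95, adjusted p = 0.00254). Il18bp, which encodes a soluble antagonist of interleukin-18, had 321, 322 and 658 normalised counts in the controls and 1838, 2822 and 2493 in the 18h-αGal libraries (log2 fold change 2.50 ± 0.26, adjusted p = 0.000257). Tnfsf10, the gene of the death ligand TRAIL, had 2542, 2303 and 3124 normalised counts in the controls and 5844, 5960.1 and 4560.2 in the 18h-αGal libraries (log2 fold change 1.05 ± 0.14, adjusted p = 0.000528). In the other direction, Cxcl16, a membrane-bound chemokine that NKT cells sense through CXCR6, had 795, 791 and 594 normalised counts in the controls and 328, 242 and 242 in the 18h-αGal libraries (log2 fold change -1.42 ± 0.21, adjusted p = 0.00136). Ccl28, which recruits IgA-secreting cells to mucosa, had 1807, 2244 and 1897 normalised counts in the controls and 1263, 953 and 821 in the 18h-αGal libraries (log2 fold change -0.96 ± 0.17, adjusted p = 0.00527). All 5 genes were without overlap between the groups, as were 618 of the 619 genes called higher and 503 of the 509 called lower. Il7 had 78.1, 17.1 and 64.2 normalised counts in the controls and 102, 60.2 and 71.8 in the 18h-αGal libraries (log2 fold change 0.57 ± 0.51, adjusted p = 0.585) and did not pass. Most words of Cxcl16 (77.0%) also lie in transcripts of other genes, chiefly Zmynd15 on the opposite strand, and exons of Il18bp overlap Numa1.

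Among ligands that regulate lymphocytes, Cd274 and Icam1 were the 2 of 14 tested genes that were higher (14.3%, against 3.27% of all tested genes). Cd274, which encodes the checkpoint ligand PD-L1, had 39.4, 45.6 and 26.1 normalised counts in the controls and 164, 129 and 146 in the 18h-αGal libraries (log2 fold change 1.96 ± 0.42, adjusted p = 0.0137). Icam1, an adhesion ligand of leukocyte integrins, had 19.97, 11.4 and 33.3 normalised counts in the controls and 88.3, 116 and 74.5 in the 18h-αGal libraries (log2 fold change 2.18 ± 0.50, adjusted p = 0.0191). Cd274 was not called without control replicate 1 (adjusted p up to 0.0542), and Icam1 was not called without control replicates 1 or 2 or 18h-αGal replicate 2 (adjusted p up to 0.097). Some genes respond to interleukin-4 and interleukin-13, which NKT cells can also release. Of 15 tested, 3 were higher (20%, against 3.27% of all tested genes). Apart from Socs1, these were the receptor chain gene Il13ra1, with 1734, 1525 and 2774 normalised counts in the controls and 3589.6, 4122 and 4635 in the 18h-αGal libraries (log2 fold change 1.05 ± 0.20, adjusted p = 0.008), and the lipoxygenase gene Alox15, with 5.87, 5.7 and 4.75 normalised counts in the controls and 53.6, 75.5 and 68.99 in the 18h-αGal libraries (log2 fold change 3.55 ± 0.74, adjusted p = 0.0119). Alox15 was not called without control replicate 1 or 18h-αGal replicate 2 (adjusted p up to 0.0582).

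Some genes of cell death were higher. 6 of 44 tested members were higher (13.6%, against 3.27% of all tested genes) and 1 was lower, while the list median was 0.14. Ripk3, the kinase that starts necroptosis, had 623, 732 and 813 normalised counts in the controls and 1492, 1997 and 1879 in the 18h-αGal libraries (log2 fold change 1.32 ± 0.15, adjusted p = 0.000154). Its substrate gene Mlkl had 226, 237 and 338 normalised counts in the controls and 489, 508 and 788 in the 18h-αGal libraries (log2 fold change 1.18 ± 0.23, adjusted p = 0.00905). Mlkl was not called without control replicate 1 (adjusted p up to 0.0571). Gasdermin C genes, whose family forms membrane pores, also rose. Gsdmc2 had 287, 280.0 and 418 normalised counts in the controls and 1195, 1824 and 1068 in the 18h-αGal libraries (log2 fold change 2.08 ± 0.32, adjusted p = 0.00372), and Gsdmc4 had 459, 549 and 763 normalised counts in the controls and 1972, 2878 and 3324 in the 18h-αGal libraries (log2 fold change 2.23 ± 0.34, adjusted p = 0.00629). The pro-apoptotic gene Bcl2l11, which encodes BIM, had 842, 830.5 and 1003 normalised counts in the controls and 448, 335 and 477 in the 18h-αGal libraries (log2 fold change -1.08 ± 0.17, adjusted p = 0.00191) and was the only member that was lower. With 1 library left out, the count of higher genes ran from 5 (without control replicate 1) to 12 (without control replicate 3). Of the words of Gsdmc2 and Gsdmc4, 51.3% and 39.0% occur in other genes, most in Gsdmc3 and Gsdmc2. Of 23 tested targets of p53, 2 were higher and 2 lower (8.7% each, against 3.27% and 2.69% of all tested genes). Ccng1 had a log2 fold change of 0.97 ± 0.21 (adjusted p = 0.0173) and Sesn1 one of -0.93 ± 0.20 (adjusted p = 0.0122). Ccng1 was not called without control replicate 1 or 18h-αGal replicates 2 or 3 (adjusted p up to 0.0661), and Sesn1 was not called without 18h-αGal replicate 2 (adjusted p up to 0.0713).

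The complement genes C3 and C4b were higher, while the secreted lectin gene Reg3a and the IgA transporter gene Pigr were lower. C3 had 27.6, 57.9 and 66.6 normalised counts in the controls and 712, 805 and 647 in the 18h-αGal libraries (log2 fold change 3.91 ± 0.33, adjusted p = 3.27e-05), and C4b had 8.81, 12.3 and 80.8 normalised counts in the controls and 581, 847 and 662 in the 18h-αGal libraries (log2 fold change 4.71 ± 0.77, adjusted p = 0.0104). Reg3a had 454, 456 and 1119.8 normalised counts in the controls and 103, 136 and 134 in the 18h-αGal libraries (log2 fold change -2.42 ± 0.45, adjusted p = 0.0124), with control replicate 3 highest. Reg3a was not called without 18h-αGal replicates 1, 2 or 3 (adjusted p up to 0.0743). Pigr, whose product carries IgA into the lumen, had the highest normalised count per kilobase of exon among the called lower genes, with 100039, 100355 and 141438 normalised counts in the controls and 65361, 54084 and 82261 in the 18h-αGal libraries (log2 fold change -0.75 ± 0.16, adjusted p = 0.0145). Pigr was not called without 18h-αGal replicate 2 (adjusted p up to 0.0851). These 4 were the members called among 30 tested antimicrobial and IL-22 or NF-κB responsive genes, whose median was -0.49. That is 6.67% in each direction, against 3.27% and 2.69% of all tested genes. Of the words of C4b, 31.5% occur in other genes, most in C4a. Among 17 tested genes of fetal-like or regenerating epithelium, which were listed with earlier results known, Ly6a and Ly6e were higher. Ccn1, a target of YAP, was lower. These were 11.8% and 5.88% of the 17, against 3.27% and 2.69% of all tested genes. Ly6a, which encodes Sca-1, had 9.4, 36.1 and 116 normalised counts in the controls and 1351, 2518 and 1453 in the 18h-αGal libraries (log2 fold change 5.37 ± 0.95, adjusted p = 0.0247). Ly6a was not called without control replicate 2 or 18h-αGal replicates 1, 2 or 3 (adjusted p up to 0.0998). Ly6e had 2750.5, 4996 and 5544 normalised counts in the controls and 15761, 20398 and 16687 in the 18h-αGal libraries (log2 fold change 2.002 ± 0.25, adjusted p = 0.00179). Ccn1 had 3099, 3163 and 1678 normalised counts in the controls and 799.5, 709 and 469 in the 18h-αGal libraries (log2 fold change -1.997 ± 0.28, adjusted p = 0.00423). Ly6a overlaps Gm28068 on the opposite strand.

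Enzyme genes of clearance and oxidation were among those that fell. Of 231 tested genes in 7 metabolic and uptake lists, 44 were lower (19%, against 2.69% of all tested genes) and 1 was higher, and control replicate 3 had the highest control value in 71.4% of the tested members. Of 57 genes of conjugation and clearance, 17 were lower and none higher, with a median of -0.81. In leave-one-out fits this count ranged from 9 (without 18h-αGal replicate 2) to 18 (without 18h-αGal replicate 3). The glucuronosyltransferase gene Ugt2b5 had 546, 319 and 316 normalised counts in the controls and 64.3, 50.3 and 80.03 in the 18h-αGal libraries (log2 fold change -2.61 ± 0.30, adjusted p = 0.000175). Ugt2b35 had 1755, 1532 and 1438 normalised counts in the controls and 704, 489.6 and 699.5 in the 18h-αGal libraries (log2 fold change -1.31 ± 0.15, adjusted p = 0.000227), and the carboxylesterase gene Ces1d had 213, 197 and 124 normalised counts in the controls and 29.0, 21.6 and 15.2 in the 18h-αGal libraries (log2 fold change -2.99 ± 0.39, adjusted p = 0.000621). Abcb1a, which encodes the drug exporter P-glycoprotein, had 1444, 1231 and 2534 normalised counts in the controls and 425, 360.2 and 479 in the 18h-αGal libraries (log2 fold change -2.03 ± 0.28, adjusted p = 0.00268). Adh1, an alcohol dehydrogenase gene, had 9398, 7491 and 9726 normalised counts in the controls and 3547, 3518 and 5850.2 in the 18h-αGal libraries (log2 fold change -1.04 ± 0.17, adjusted p = 0.00424). The 18h-αGal libraries were below all controls in each of these 5 genes, as in 503 of the 509 genes called lower. Of the words of Ugt2b5 and Abcb1a, 28.8% and 20.3% occur in other genes, most in Ugt2b38 and Abcb1b.

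Cytochrome P450 genes, the oxidases of the same pathway, had 10 of 31 members lower and 1 higher, with a median of -0.99. Omission of single libraries gave counts of lower genes from 3 (without 18h-αGal replicate 1) to 8 (without 18h-αGal replicate 3). Cyp2c66 had 527, 328 and 979.5 normalised counts in the controls and 54.9, 45.8 and 84.2 in the 18h-αGal libraries (log2 fold change -3.31 ± 0.49, adjusted p = 0.00365), Cyp2j6 had 2137, 1696 and 1957 normalised counts in the controls and 969, 890.2 and 1246 in the 18h-αGal libraries (log2 fold change -0.89 ± 0.16, adjusted p = 0.00422), and Cyp4v3 had 1422, 1186 and 2197 normalised counts in the controls and 529, 363 and 698 in the 18h-αGal libraries (log2 fold change -1.58 ± 0.29, adjusted p = 0.0114). Cyp2c55 had 617, 238 and 949 normalised counts in the controls and 47.3, 49.4 and 24.8 in the 18h-αGal libraries (log2 fold change -3.83 ± 0.73, adjusted p = 0.0228), and Cyp2b10 had 1208, 565 and 1726 normalised counts in the controls and 146, 54.8 and 75.9 in the 18h-αGal libraries (log2 fold change -3.61 ± 0.73, adjusted p = 0.0367). Both of the latter varied several-fold among the controls, with the lowest level in replicate 2. Cyp2c55 was not called without control replicate 1 or 18h-αGal replicates 1, 2 or 3 (adjusted p up to 0.11), and Cyp2b10 was not called without control replicates 1 or 3 or 18h-αGal replicates 1, 2 or 3 (adjusted p up to 0.143). Cyp4b1 was the member that was higher, with 261, 239 and 238 normalised counts in the controls and 448, 431 and 607 in the 18h-αGal libraries (log2 fold change 1.01 ± 0.23, adjusted p = 0.0173). Cyp4b1 was not called without control replicates 1 or 2 or 18h-αGal replicate 3 (adjusted p up to 0.0589). Among nuclear receptors that sense hormones, bile acids and lipids, 5 of 26 were lower (19.2%, against 2.69% of all tested genes) and none higher. The thyroid hormone receptor genes Thrb and Thra had log2 fold changes of -0.63 ± 0.14 and -0.62 ± 0.15, the glucocorticoid receptor gene Nr3c1 had -0.48 ± 0.11, the bile acid receptor gene Nr1h4 had -0.98 ± 0.26 and Ppard had -0.43 ± 0.12, with adjusted p of 0.0158, 0.0215, 0.0222, 0.04 and 0.0497. Thrb was not called without control replicate 2 or 18h-αGal replicate 2 (adjusted p up to 0.0866), and Thra was not called without 18h-αGal replicates 1 or 2 (adjusted p up to 0.118). Nr3c1 was not called without control replicates 1 or 2 or 18h-αGal replicates 1 or 2 (adjusted p up to 0.125), Nr1h4 was not called without control replicates 1 or 3 or 18h-αGal replicates 1 or 2 (adjusted p up to 0.161), and Ppard was not called without control replicates 1, 2 or 3 or 18h-αGal replicates 1 or 2 (adjusted p up to 0.154).

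Single genes of fat oxidation and steroid synthesis fell. Of 42 tested genes of fat absorption and oxidation, 6 were lower (14.3%, against 2.69% of all tested genes) and none higher. Their median was -0.06. Cd36, a fatty acid transporter gene, had 218, 165 and 359 normalised counts in the controls and 30.3, 32.3 and 68.99 in the 18h-αGal libraries (log2 fold change -2.51 ± 0.45, adjusted p = 0.00507). Fbp1, an enzyme gene of gluconeogenesis, had 559, 773 and 706 normalised counts in the controls and 232, 233 and 309 in the 18h-αGal libraries (log2 fold change -1.39 ± 0.19, adjusted p = 0.00075). The β-oxidation gene Acaa2 had 2310.5, 1978 and 2594 normalised counts in the controls and 1159.5, 994 and 1402 in the 18h-αGal libraries (log2 fold change -0.94 ± 0.14, adjusted p = 0.00147), and Slc27a2, which activates long fatty acids, had 3529.8, 3409.5 and 4365 normalised counts in the controls and 1982, 1826 and 2508 in the 18h-αGal libraries (log2 fold change -0.83 ± 0.13, adjusted p = 0.00212). Of 18 tested genes of steroid synthesis, Hsd3b3 and Hsd3b2 were lower (11.1%, against 2.69% of all tested genes). Hsd3b3 had 213, 165 and 283 normalised counts in the controls and 7.57, 14.4 and 19.3 in the 18h-αGal libraries (log2 fold change -4.04 ± 0.44, adjusted p = 0.000131), and Hsd3b2 had 25.3, 57.9 and 40.4 normalised counts in the controls and 2.52, 1.8 and 1.38 in the 18h-αGal libraries (log2 fold change -4.30 ± 0.84, adjusted p = 0.008). Both overlap exons of Zfp697, and 27.1% of the words of Hsd3b2 occur in other genes, most in Hsd3b3. None of the 7 tested bile acid transport genes was called.

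Of 53 digestive and uptake genes of the brush border, 4 were lower (7.55%, against 2.69% of all tested genes) and none higher. The median was -0.06. Lrat, which esterifies vitamin A, had 1236, 1101 and 825 normalised counts in the controls and 565, 342 and 493 in the 18h-αGal libraries (log2 fold change -1.17 ± 0.20, adjusted p = 0.00398). The nucleoside transporter gene Slc28a2 had 249, 302 and 176 normalised counts in the controls and 76.3, 74.6 and 99.3 in the 18h-αGal libraries (log2 fold change -1.55 ± 0.29, adjusted p = 0.00661), and the water channel gene Aqp1 had 3914, 4698 and 2449 normalised counts in the controls and 1631, 1205 and 906 in the 18h-αGal libraries (log2 fold change -1.55 ± 0.30, adjusted p = 0.0211). Aqp1 was not called without control replicate 1 or 18h-αGal replicates 2 or 3 (adjusted p up to 0.107). Other genes hold 30.1% of the words of Slc28a2 and 60.9% of those of Apoa4. The apolipoprotein gene Apoa4 had 1818, 845 and 2881 normalised counts in the controls and 1216, 655 and 1195 in the 18h-αGal libraries (log2 fold change -0.84 ± 0.61, adjusted p = 0.518), which did not pass, and its groups overlapped. Among 30 tested genes of junctions and barrier, 3 were lower (10%, against 2.69% of all tested genes) and none was higher. These were the laminin-332 chain genes Lamb3 and Lama3 and the claudin gene Cldn8. Lamb3 had 330.1, 402 and 178 normalised counts in the controls and 76.9, 61.1 and 57.95 in the 18h-αGal libraries (log2 fold change -2.21 ± 0.33, adjusted p = 0.00152), and Lama3 had 257, 119.6 and 266 normalised counts in the controls and 27.1, 49.4 and 22.1 in the 18h-αGal libraries (log2 fold change -2.68 ± 0.49, adjusted p = 0.00527). Cldn8 had 61.7, 102 and 38.04 normalised counts in the controls and 5.04, 0 and 0 in the 18h-αGal libraries (adjusted p = 0.0119).

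**Figure D3:**
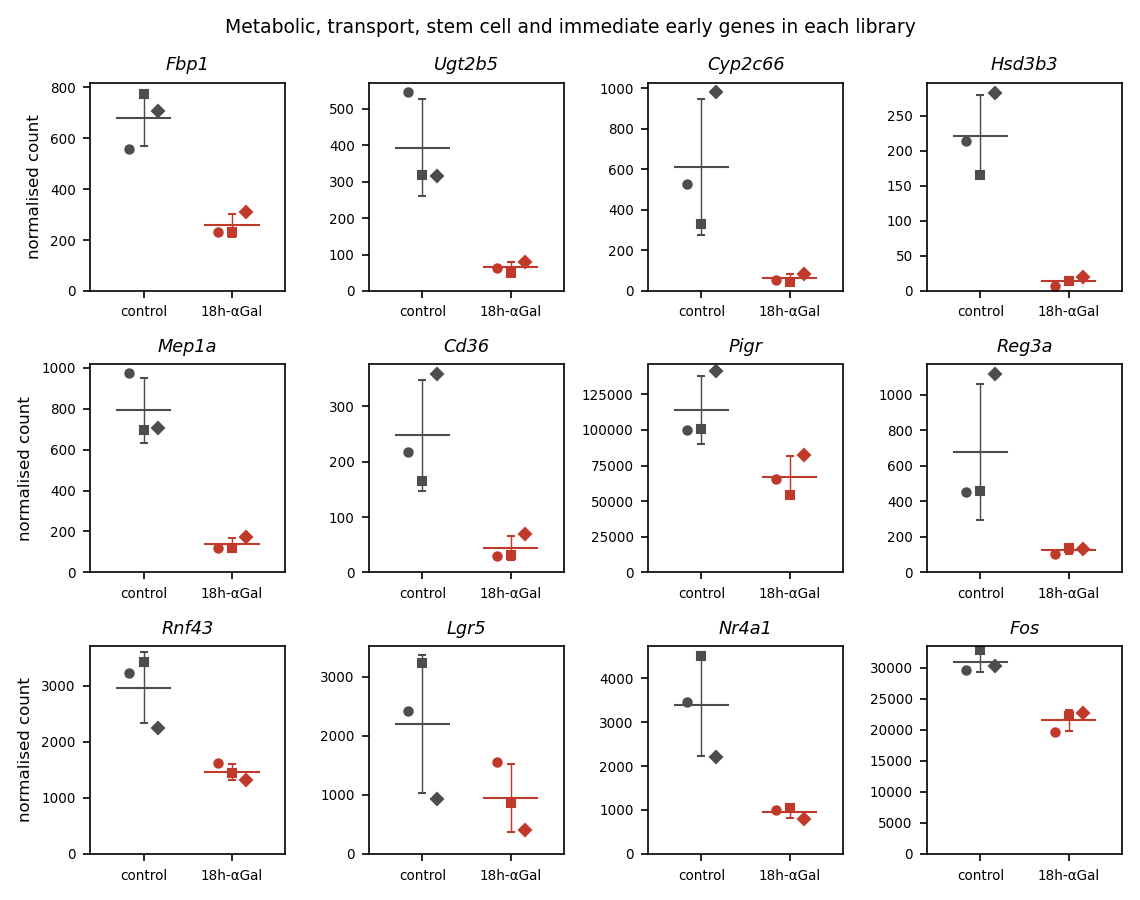
Normalised counts of 12 genes in each library, with circles, squares and diamonds for replicates 1, 2 and 3, a line for the mean and bars for the SD (n = 3). Grey marks controls and red marks 18h-αGal libraries, and axes start at 0. The groups are separate in 11 panels, whereas those of Lgr5 overlap.

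Most stem cell genes of the crypt base had values below the control level, but few passed the test. Of 30 tested, 4 were lower (13.3%, against 2.69% of all tested genes) and none was higher. A fitted change below 0 was found for 27 of them, while 47.6% of all tested genes were above 0. The median was -0.58. The summed level was between 5174 and 9421 CPM in the controls and between 1957 and 5049 CPM in the 18h-αGal libraries. Rnf43, Gkn3 and Sp5 were among the members called. Rnf43, a ubiquitin ligase that removes Wnt receptors, had 3232, 3423 and 2249 normalised counts in the controls and 1614, 1449.8 and 1326 in the 18h-αGal libraries (log2 fold change -1.01 ± 0.16, adjusted p = 0.00194). Gkn3 had 310.1, 494 and 116 normalised counts in the controls and 35.3, 17.97 and 5.52 in the 18h-αGal libraries (log2 fold change -3.87 ± 0.71, adjusted p = 0.0146), and Sp5, a Wnt target, had 184, 299.9 and 333 normalised counts in the controls and 154, 52.1 and 102 in the 18h-αGal libraries (log2 fold change -1.38 ± 0.37, adjusted p = 0.0423). Gkn3 was not called without 18h-αGal replicate 2 (adjusted p up to 0.101), and Sp5 was not called without control replicates 2 or 3 or 18h-αGal replicates 2 or 3 (adjusted p up to 0.151). Lgr5 and Olfm4, named after their values were seen, did not pass. Lgr5 had 2424, 3240.5 and 932 normalised counts in the controls and 1564, 858 and 411 in the 18h-αGal libraries (log2 fold change -1.21 ± 0.62, adjusted p = 0.344), and Olfm4 had 40052, 47952 and 26289 normalised counts in the controls and 23867, 18022 and 5858 in the 18h-αGal libraries (log2 fold change -1.25 ± 0.53, adjusted p = 0.245). For both genes replicate 3 was the lowest library within each group. Calls numbered from 2 (without 18h-αGal replicate 2) to 7 (without control replicate 3) when 1 library was left out. Among 30 other Wnt and Notch genes, 1 was higher and 1 lower (3.33% each, near the 3.27% and 2.69% of all tested genes). Ccnd1, which encodes cyclin D1, was higher with 1322, 1629.8 and 1436 normalised counts in the controls and 3893, 3817 and 2801 in the 18h-αGal libraries (log2 fold change 1.27 ± 0.15, adjusted p = 0.00027). Lef1 had 1.76, 43.7 and 11.9 normalised counts in the controls and 0, 0 and 0 in the 18h-αGal libraries (adjusted p = 0.0451), and Lef1 was not called without control replicate 2 or 18h-αGal replicates 1, 2 or 3 (adjusted p up to 0.173). Exons of Ccnd1 and LTO1 overlap on opposite strands.

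Some immediate early genes, a class induced within minutes by growth factors and by tissue handling, were lower. They were tested in a list of 32 immediate early and tissue dissociation genes. Of these 32, 13 were lower (40.6%, against 2.69% of all tested genes) and 3 were higher, with a median of -0.37. When 1 library was left out, the number called lower ranged from 8 (without 18h-αGal replicate 1) to 15 (without control replicate 3). Nr4a1, an orphan nuclear receptor gene, had 3456, 4512 and 2202 normalised counts in the controls and 1008, 1045 and 806 in the 18h-αGal libraries (log2 fold change -1.82 ± 0.23, adjusted p = 0.00156). Egr2 had 911, 1173 and 678 normalised counts in the controls and 368, 352 and 302 in the 18h-αGal libraries (log2 fold change -1.43 ± 0.19, adjusted p = 0.000628), and Atf3 had 6362, 7383 and 6599.6 normalised counts in the controls and 4196, 4076 and 4159 in the 18h-αGal libraries (log2 fold change -0.70 ± 0.10, adjusted p = 0.00136). The AP-1 gene Fos had 29719, 32875 and 30288 normalised counts in the controls and 19637, 22294 and 22694 in the 18h-αGal libraries (log2 fold change -0.52 ± 0.11, adjusted p = 0.0116), and Jun had 11592, 13152 and 12027 normalised counts in the controls and 7199, 8765 and 9425 in the 18h-αGal libraries (log2 fold change -0.53 ± 0.12, adjusted p = 0.0146). Junb had 8656, 8552 and 8901 normalised counts in the controls and 5385, 4725 and 6706 in the 18h-αGal libraries (log2 fold change -0.63 ± 0.13, adjusted p = 0.0111). Ier2 had 7429.7, 7369 and 6514 normalised counts in the controls and 3836, 4790.5 and 5419.8 in the 18h-αGal libraries (log2 fold change -0.60 ± 0.12, adjusted p = 0.0121). Fos was not called without 18h-αGal replicate 1 (adjusted p up to 0.0549), Jun was not called without control replicate 2 or 18h-αGal replicates 1 or 2 (adjusted p up to 0.0689), and Junb was not called without 18h-αGal replicate 2 (adjusted p up to 0.071). Ier2 was not called without control replicate 1 or 18h-αGal replicate 1 (adjusted p up to 0.0674). Fos, Jun, Junb and Ier2 were among the 8 called lower genes with the highest normalised count per kilobase of exon. The members that were higher were the chaperone genes Hsp90aa1 and Hspe1 and the phosphatase gene Dusp6. Hsp90aa1 had 7514, 8527 and 10111 normalised counts in the controls and 16041, 21923 and 18098 in the 18h-αGal libraries (log2 fold change 1.11 ± 0.13, adjusted p = 0.000298), with 34.6% of its words in other genes. Dusp6 was not called without control replicate 1 (adjusted p up to 0.0583). Whether handling of the tissue differed between groups was not tested. Of 20 tested clock genes, Nr1d1, Nr1d2 and Per1 were lower (15%, against 2.69% of all tested genes) and none was higher. Nr1d1, a repressor in the clock, had 5925, 4872 and 4479 normalised counts in the controls and 2410.5, 2856 and 3731 in the 18h-αGal libraries (log2 fold change -0.76 ± 0.15, adjusted p = 0.00736), and Per1 had 2542, 2451 and 1766 normalised counts in the controls and 1389, 1533 and 1019.7 in the 18h-αGal libraries (log2 fold change -0.77 ± 0.18, adjusted p = 0.0186). Nr1d1 was not called without control replicate 1 (adjusted p up to 0.0565), Nr1d2 was not called without control replicate 2 or 18h-αGal replicate 2 (adjusted p up to 0.0819), and Per1 was not called without control replicates 1 or 2 (adjusted p up to 0.0933). Nr1d1 and Thra overlap on opposite strands, with 45.3% of the words of Nr1d1 in other genes. The labels give the time after injection for both groups and not the clock time.

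Several chaperone genes of the endoplasmic reticulum rose. Of 42 tested genes of the unfolded protein response, 15 were higher (35.7%, against 3.27% of all tested genes) and 2 lower (4.76%, against 2.69%). Of the higher genes, 12 were called in all 6 fits that left out a library. The summed level of the list was between 7259 and 8156 CPM in the controls and between 10288 and 10453 CPM in the 18h-αGal libraries, without overlap of the groups. Pdia4, a disulphide isomerase gene, had 3257, 3153 and 3385 normalised counts in the controls and 6630.0, 6990.4 and 6324 in the 18h-αGal libraries (log2 fold change 1.03 ± 0.11, adjusted p = 0.000114). Creld2 had 339, 254 and 338 normalised counts in the controls and 940.1, 862 and 982 in the 18h-αGal libraries (log2 fold change 1.59 ± 0.18, adjusted p = 0.000175), and Manf, a secreted stress factor gene, had 1834, 1822 and 2384 normalised counts in the controls and 3588, 4258 and 4124 in the 18h-αGal libraries (log2 fold change 0.997 ± 0.13, adjusted p = 0.00075). Calr, which encodes calreticulin, had 14238, 12332 and 15769 normalised counts in the controls and 27205, 27979 and 28287 in the 18h-αGal libraries (log2 fold change 0.99 ± 0.12, adjusted p = 0.00031), and Pdia3 had 5292, 5108 and 6607 normalised counts in the controls and 11015, 10714 and 10551 in the 18h-αGal libraries (log2 fold change 0.93 ± 0.13, adjusted p = 0.000854). Hspa5, the gene of the chaperone BiP, had 8673, 8179 and 10869 normalised counts in the controls and 13952, 16502 and 16259 in the 18h-αGal libraries (log2 fold change 0.76 ± 0.13, adjusted p = 0.00333). The lower members, Atf3 and Ppp1r15a, are transcription and phosphatase regulators of the stress response, and Atf3 is also an immediate early gene. Ppp1r15a was not called without control replicates 1 or 2 or 18h-αGal replicates 1 or 2 (adjusted p up to 0.0841). Other genes hold 37.6% of the words of Manf and 21.4% of those of Pdia3.

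The endoplasmic reticulum stress element (ERSE) is read by ATF6 and XBP1. Its letters, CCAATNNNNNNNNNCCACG, were searched after the values were seen. They occurred in 7 of the 13 higher unfolded protein response genes with a RefSeq promoter (53.8%), in 0.189% of tested genes with one, in 1.67% of those called higher, in 0% of those called lower and in 0.137% of all genes with an entry. The share among members of this list that were not called was not computed, so these shares do not tie the letters to the rise. The windows are shown in the same way, because these 7 members that rose hold the same letters. In Calr, in Creld2 and in the match shown for Hsp90b1 they lie on the opposite strand, and Hsp90b1 has another match. Canx was not called without control replicates 1 or 2 or 18h-αGal replicates 1 or 2 (adjusted p up to 0.156).
Hspa5 (chr2:34772005-34772063, plus strand): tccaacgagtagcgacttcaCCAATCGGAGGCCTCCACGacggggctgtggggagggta
Hsp90b1 (chr10:86705513-86705571, minus strand): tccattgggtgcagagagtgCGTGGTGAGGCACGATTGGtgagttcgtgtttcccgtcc
Calr (chr8:84847055-84847113, minus strand): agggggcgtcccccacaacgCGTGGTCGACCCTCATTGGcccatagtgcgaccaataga
Creld2 (chr15:88819500-88819558, plus strand): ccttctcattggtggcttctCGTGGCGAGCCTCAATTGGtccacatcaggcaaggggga
Pdia6 (chr12:17266471-17266529, plus strand): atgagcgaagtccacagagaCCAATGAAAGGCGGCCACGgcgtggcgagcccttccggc
Dnajc3 (chr14:118937807-118937865, plus strand): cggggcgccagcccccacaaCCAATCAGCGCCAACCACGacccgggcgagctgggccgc
Canx (chr11:50325780-50325838, minus strand): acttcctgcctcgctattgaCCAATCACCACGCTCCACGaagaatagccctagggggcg

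Some cholesterol synthesis genes were higher as well. Of 32 tested, 8 were higher (25%, against 3.27% of all tested genes) and none lower, with a median of 0.44. The number called ranged from 4 (without 18h-αGal replicate 1) to 8 (without control replicate 3) when 1 library was left out. Scd2, a desaturase gene, had 360.0, 489.8 and 442 normalised counts in the controls and 3609.8, 2184 and 2442 in the 18h-αGal libraries (log2 fold change 2.69 ± 0.27, adjusted p = 0.000214). Sqle, an enzyme gene of cholesterol synthesis, had 1222, 1268 and 1136 normalised counts in the controls and 2320.4, 2167 and 2188 in the 18h-αGal libraries (log2 fold change 0.89 ± 0.14, adjusted p = 0.00201). Insig1, which restrains the sterol sensor, had 2218, 2014 and 2099 normalised counts in the controls and 4138, 3324 and 4294 in the 18h-αGal libraries (log2 fold change 0.90 ± 0.14, adjusted p = 0.00212). Msmo1 had 943, 850.5 and 1010.4 normalised counts in the controls and 1582, 1269 and 1454 in the 18h-αGal libraries (log2 fold change 0.63 ± 0.15, adjusted p = 0.0199). Msmo1 was not called without control replicates 1 or 2 or 18h-αGal replicate 1 (adjusted p up to 0.0832). Enzyme genes that supply NADPH from glucose were higher too. G6pdx had 1603, 1448 and 1555 normalised counts in the controls and 2624, 2864 and 2671 in the 18h-αGal libraries (log2 fold change 0.83 ± 0.12, adjusted p = 0.00106), and Pgd had 4244, 3232 and 4684 normalised counts in the controls and 6331, 6492 and 7394 in the 18h-αGal libraries (log2 fold change 0.74 ± 0.15, adjusted p = 0.0103). They and the peroxidase gene Gpx2 were the members called higher among 27 tested oxidative stress genes (11.1%, against 3.27% of all tested genes). The catalase gene Cat, in contrast, had 4322, 3734 and 5437 normalised counts in the controls and 2039, 1479.5 and 2663 in the 18h-αGal libraries (log2 fold change -1.12 ± 0.19, adjusted p = 0.00557). Gpx2 was not called without control replicates 1 or 2 or 18h-αGal replicates 1 or 2 (adjusted p up to 0.115).

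Gene families of protein synthesis were examined after their values were seen. Of all tested genes, 3.27% were higher. Of 17 tested cytosolic aminoacyl-tRNA synthetases, 9 were higher (52.9%, median 0.48), and of 17 mitochondrial ones none was (median -0.03). The number of cytosolic synthetases called ranged from 4 (without 18h-αGal replicate 2) to 9 (without 18h-αGal replicate 3) when 1 library was left out. Tars1 had 1503, 1505 and 1495 normalised counts in the controls and 2388, 2505 and 2602 in the 18h-αGal libraries (log2 fold change 0.74 ± 0.12, adjusted p = 0.00209). Of 74 mitochondrial ribosomal protein genes, 14 were higher (18.9%, median 0.38), with a range from 2 (without 18h-αGal replicate 2) to 14 (without control replicate 3) when 1 library was left out. Of 78 cytosolic ribosomal protein genes, 2 were higher (2.56%, median -0.04), which is below the share of all tested genes. Of 8 chaperonin CCT genes, 5 were higher (62.5%), and of 79 respiratory chain genes encoded in the nucleus, 4 were (5.06%). None of the genes in these 6 families was lower. None of the 15 tested mitochondrially encoded genes was called, and their median was -0.32.

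Some mitotic genes were higher, by less than 1 on the log2 scale. Of 50 tested, 11 were higher and none lower (22%, against 3.27% of all tested genes). Of the 50, 48 were above 0, against 47.6% of all tested genes, and the median was 0.51. Fits that left out 1 library called from 1 (without 18h-αGal replicate 2) to 18 (without control replicate 2) members. Hmmr, a spindle gene, had 470.4, 611 and 478 normalised counts in the controls and 864, 1218 and 883 in the 18h-αGal libraries (log2 fold change 0.93 ± 0.17, adjusted p = 0.00598). Ube2c, which directs cyclins to destruction, had 1389.6, 1609 and 1053 normalised counts in the controls and 2547, 2780.2 and 1955 in the 18h-αGal libraries (log2 fold change 0.85 ± 0.17, adjusted p = 0.0103), and Plk1, a mitotic kinase gene, had 1019.6, 1127 and 1053 normalised counts in the controls and 1904, 1810.0 and 1279 in the 18h-αGal libraries (log2 fold change 0.65 ± 0.15, adjusted p = 0.019). Ube2c was not called without 18h-αGal replicate 2 (adjusted p up to 0.0633), and Plk1 was not called without control replicate 1 or 18h-αGal replicates 1 or 2 (adjusted p up to 0.0984). Of 49 genes of DNA replication, 2 were higher (4.08%, near the 3.27% of all tested genes), with a median of 0.34. Rrm2, a subunit of ribonucleotide reductase, had 688, 659.7 and 552 normalised counts in the controls and 1529, 1498 and 1089 in the 18h-αGal libraries (log2 fold change 1.12 ± 0.18, adjusted p = 0.00212). Of the words of Rrm2, 34.5% occur in other genes. E2f2 had 1730.3, 1858 and 1928 normalised counts in the controls and 2521, 2618 and 3136 in the 18h-αGal libraries (log2 fold change 0.59 ± 0.13, adjusted p = 0.0127), and E2f2 was not called without control replicate 1 (adjusted p up to 0.074). Of 52 replication-dependent histone genes, 1 was higher (1.92%) and none lower. This was H4c18, higher by 0.85 ± 0.22 on the log2 scale (adjusted p = 0.0359). H4c18 was not called without control replicates 1 or 3 or 18h-αGal replicates 1, 2 or 3 (adjusted p up to 0.146), and 85.6% of its words occur in other genes, most in H4c17.

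Among secretory lineages, some enteroendocrine and tuft cell genes were higher at 18 h. Of 42 tested enteroendocrine genes, 6 were higher (14.3%, against 3.27% of all tested genes) and none lower. A fitted change above 0 was found for 36 of them, against 47.6% of all tested genes, and the median was 0.56. The summed level was between 1253 and 1368 CPM in the controls and between 1456 and 2279.6 CPM in the 18h-αGal libraries. Chgb, which encodes a granin of hormone granules, had 3008, 2584 and 2651 normalised counts in the controls and 3806, 3889.6 and 5867 in the 18h-αGal libraries (log2 fold change 0.72 ± 0.16, adjusted p = 0.0138). Gcg, the precursor gene of GLP-1, had 1264, 726 and 868 normalised counts in the controls and 1523, 2098 and 2097 in the 18h-αGal libraries (log2 fold change 1.001 ± 0.22, adjusted p = 0.0162), and Sst, which encodes somatostatin, had 1140.0, 1112 and 796 normalised counts in the controls and 1582, 2186 and 3692 in the 18h-αGal libraries (log2 fold change 1.28 ± 0.27, adjusted p = 0.0187). Chga had 978, 984 and 1103 normalised counts in the controls and 1329.8, 1435 and 1897 in the 18h-αGal libraries (log2 fold change 0.61 ± 0.17, adjusted p = 0.0469), and Cpe, a prohormone processing enzyme gene, had 447, 477 and 611 normalised counts in the controls and 658, 929.7 and 1034 in the 18h-αGal libraries (log2 fold change 0.78 ± 0.22, adjusted p = 0.0483). The groups did not overlap for these 5 genes, as for 618 of the 619 genes called higher. Chgb was not called without control replicate 2 (adjusted p up to 0.0519). Gcg was not called without control replicate 2 or 18h-αGal replicate 2 (adjusted p up to 0.0791), and Sst was not called without control replicates 1, 2 or 3 or 18h-αGal replicate 2 (adjusted p up to 0.0592). Chga was not called without control replicates 1 or 2 or 18h-αGal replicates 2 or 3 (adjusted p up to 0.154), and Cpe was not called without control replicates 1 or 2 or 18h-αGal replicates 2 or 3 (adjusted p up to 0.177). With 1 library left out, the count ran from 0 (without control replicate 2) to 8 (without 18h-αGal replicate 1).

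Of 28 tested genes of tuft cells, the chemosensory cells of the gut, 4 were higher (14.3%, against 3.27% of all tested genes) and none lower. Of the 28, 25 were above 0, against 47.6% of all tested genes, and the median was 0.69. Avil had 422, 463 and 252 normalised counts in the controls and 597, 858 and 1206 in the 18h-αGal libraries (log2 fold change 1.21 ± 0.27, adjusted p = 0.0189). Alox5, which makes leukotriene precursors, had 162, 133 and 92.7 normalised counts in the controls and 220.1, 276 and 346 in the 18h-αGal libraries (log2 fold change 1.10 ± 0.28, adjusted p = 0.0302). Plcb2, a phospholipase gene of taste signalling, had a log2 fold change of 1.18 ± 0.31 (adjusted p = 0.0484). Avil was not called without control replicate 1 or 18h-αGal replicates 2 or 3 (adjusted p up to 0.071). Alox5 was not called without control replicates 2 or 3 or 18h-αGal replicates 2 or 3 (adjusted p up to 0.097). Plcb2 was not called without control replicate 1 or 18h-αGal replicates 2 or 3 (adjusted p up to 0.154). Dclk1 had 1324, 1742 and 804 normalised counts in the controls and 1520.2, 2070.5 and 2966 in the 18h-αGal libraries (log2 fold change 0.75 ± 0.37, adjusted p = 0.308) and did not pass. In leave-one-out fits this count ranged from 0 (without 18h-αGal replicate 2) to 6 (without 18h-αGal replicate 1). None of 26 tested Paneth cell genes was called (median 0.32), and their summed level, between 1371 and 6199 CPM in the controls and between 2871 and 6118 CPM in the 18h-αGal libraries, overlapped between groups. Of 23 goblet cell genes, 2 were higher (8.7%, against 3.27% of all tested genes) and none lower. Of the 23, 13 were above 0, against 47.6% of all tested genes, and the median was 0.09. Their summed level was between 12920.5 and 14418 CPM in the controls and 19288, 8225 and 7256 CPM in the 18h-αGal libraries. The goblet marker Muc2 had 951.5, 926 and 999 TPM in the controls and 1632, 671 and 531 TPM in the 18h-αGal libraries. Agr2, a mucin-folding enzyme gene, and Guca2a, which encodes guanylin, were the higher members, by 0.67 ± 0.17 (adjusted p = 0.0359) and 0.74 ± 0.21 (adjusted p = 0.0479). Agr2 was not called without control replicates 1, 2 or 3 or 18h-αGal replicates 1 or 2 (adjusted p up to 0.142), and Guca2a was not called without control replicates 1 or 2 or 18h-αGal replicates 1 or 2 (adjusted p up to 0.161).

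**Figure D4:**
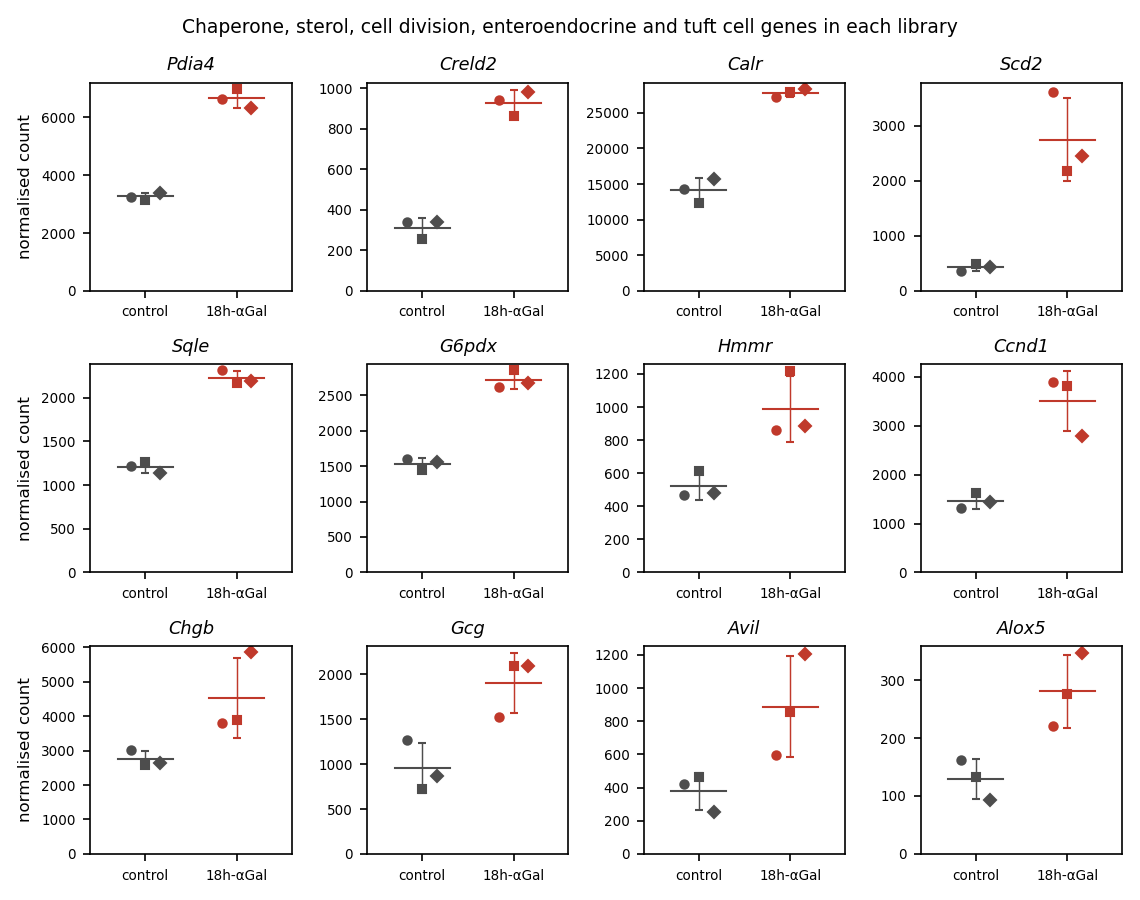
Normalised counts of 12 genes in each library, with circles, squares and diamonds for replicates 1, 2 and 3, a line for the mean and bars for the SD (n = 3). Grey marks controls and red marks 18h-αGal libraries, and axes start at 0. The groups do not overlap in any of these panels.

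Several of the large changes lay outside the lists. The 8 called higher genes with the highest normalised count per kilobase of exon were B2m, Calr, Hsp90aa1, Lgals9, the citrate synthase gene Cs, the cytochrome gene Cyc1, the actin-binding gene Pfn1 and the tubulin gene Tubb4b. Cs was not called without control replicates 1 or 2 or 18h-αGal replicates 2 or 3 (adjusted p up to 0.103). Cyc1 was not called without control replicates 1 or 2 or 18h-αGal replicates 1, 2 or 3 (adjusted p up to 0.153), and Pfn1 was not called without control replicates 1 or 2 or 18h-αGal replicates 1, 2 or 3 (adjusted p up to 0.162). Serping1, which encodes the C1 inhibitor of complement, had 5.87, 10.4 and 9.51 normalised counts in the controls and 300.1, 409 and 309 in the 18h-αGal libraries (log2 fold change 5.35 ± 0.52, adjusted p = 5.24e-05). Inf2, an actin-remodelling formin gene, had 176, 141 and 128 normalised counts in the controls and 2573, 4164 and 2511 in the 18h-αGal libraries (log2 fold change 4.36 ± 0.31, adjusted p = 5.24e-05). Pla2g4c, a phospholipase gene, had 150.4, 318 and 269 normalised counts in the controls and 796, 1445 and 1963 in the 18h-αGal libraries (log2 fold change 2.53 ± 0.37, adjusted p = 0.00343). Nudt5, which hydrolyses ADP-ribose, had 807, 745 and 1327 normalised counts in the controls and 3439.5, 3621 and 4099 in the 18h-αGal libraries (log2 fold change 1.98 ± 0.19, adjusted p = 5.24e-05), and Parp3, which adds it to proteins, had 130.4, 144 and 190.2 normalised counts in the controls and 398, 486 and 687 in the 18h-αGal libraries (log2 fold change 1.78 ± 0.26, adjusted p = 0.00136). Tlr1, a receptor of bacterial lipopeptides, had 193, 277 and 209 normalised counts in the controls and 718, 966 and 756 in the 18h-αGal libraries (log2 fold change 1.85 ± 0.20, adjusted p = 0.000131). Spats2l had 94.6, 142 and 124 normalised counts in the controls and 649, 338 and 388 in the 18h-αGal libraries (log2 fold change 1.95 ± 0.29, adjusted p = 0.00148). The 7 genes from Serping1 to Spats2l were called in each fit that left out a library. Exons of Nudt5 overlap Sec61a2 on the opposite strand, and 31.5% of its words occur in other genes.

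On the falling side, Mep1a, a brush border metalloprotease gene, had 973, 698 and 704 normalised counts in the controls and 120.4, 120.4 and 174 in the 18h-αGal libraries (log2 fold change -2.52 ± 0.22, adjusted p = 4.08e-05). Adgrf1, an adhesion receptor gene, had 230.2, 382 and 185 normalised counts in the controls and 31.5, 43.1 and 19.3 in the 18h-αGal libraries (log2 fold change -3.06 ± 0.37, adjusted p = 0.00027). Mycn, a transcription factor gene of the MYC family, had 282, 409 and 138 normalised counts in the controls and 31.5, 19.8 and 60.7 in the 18h-αGal libraries (log2 fold change -2.94 ± 0.43, adjusted p = 0.00147). Edn1, which encodes endothelin-1, had 403, 706 and 354 normalised counts in the controls and 130.5, 73.7 and 52.4 in the 18h-αGal libraries (log2 fold change -2.48 ± 0.36, adjusted p = 0.00191). Dio1, which converts thyroid hormone to its active form, had 381, 331 and 552 normalised counts in the controls and 100.3, 97.01 and 99.3 in the 18h-αGal libraries (log2 fold change -2.07 ± 0.25, adjusted p = 0.000316). Zc3h6 had 162, 249.6 and 219 normalised counts in the controls and 46.7, 35.9 and 33.1 in the 18h-αGal libraries (log2 fold change -2.41 ± 0.31, adjusted p = 0.000439), and Paqr5, a membrane progestin receptor gene, had 224, 194 and 80.8 normalised counts in the controls and 33.4, 37.7 and 35.9 in the 18h-αGal libraries (log2 fold change -2.23 ± 0.39, adjusted p = 0.00414). Each was called whichever library was left out. That each was lower in all 18h-αGal libraries than in any control was a condition of the rule that named these genes. Nr4a3, related to Nr4a1, had 638, 644 and 388 normalised counts in the controls and 133, 175 and 31.7 in the 18h-αGal libraries (log2 fold change -2.27 ± 0.48, adjusted p = 0.0242). Nr4a3 was not called without control replicates 1 or 2 or 18h-αGal replicate 1 (adjusted p up to 0.0828). Xist, the RNA that coats the inactive X chromosome, had 60792, 61503 and 50995 normalised counts in the controls and 39886, 40964 and 40808 in the 18h-αGal libraries (log2 fold change -0.50 ± 0.13, adjusted p = 0.0355). Xist was not called without control replicates 1 or 2 or 18h-αGal replicates 1, 2 or 3 (adjusted p up to 0.141), and its exons overlap those of Tsix and Jpx.

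Called genes also lay side by side. Among tested protein-coding genes in chromosomal order (GENCODE vM39), 4 runs of 3 or more neighbours were called higher and 5 were called lower. On chromosome 17, Psmb9, Tap1, Psmb8 and Tap2 were neighbours with log2 fold changes between 1.41 and 2.25, and H2-Q4, H2-Q5, H2-Q6, H2-Q7 and H2-Q10 were neighbours with changes between 0.94 and 3.23. On chromosome 5, Gbp9, Gbp4, Gbp10 and Gbp6 had changes between 2.79 and 5.15. Downwards, Cyp2c55, Cyp2c65 and Cyp2c66 on chromosome 19 had changes between -3.83 and -1.11. Ugt2b34, Ugt2b35, Ugt2b36, Ugt2b5 and Ugt2a3 on chromosome 5 had changes between -2.61 and -0.71. Not all of these calls were stable. H2-Q10 was called in none of the 6 fits that left out a library (adjusted p up to 0.0888), and H2-Q7 was not called without control replicates 1 or 2 or 18h-αGal replicates 1, 2 or 3 (adjusted p up to 0.105). Tap2 was not called without control replicate 1 or 18h-αGal replicate 2 (adjusted p up to 0.0779), and Gbp10 was not called without control replicate 1 or 18h-αGal replicates 1 or 2 (adjusted p up to 0.119). Cyp2c65 was not called without control replicate 1 or 18h-αGal replicates 1 or 2 (adjusted p up to 0.113). Ugt2b34 was not called without control replicates 1 or 3 or 18h-αGal replicates 1 or 2 (adjusted p up to 0.125), and Ugt2a3 was not called without control replicate 1 or 18h-αGal replicates 1 or 2 (adjusted p up to 0.101). The losses of Tap1, H2-Q4, H2-Q6 and Cyp2c55 are given above. The H2-Q, Gbp, Cyp2c and Ugt2 runs consist of related genes, and reads of near-identical copies cannot be assigned with certainty.

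**Figure D5:**
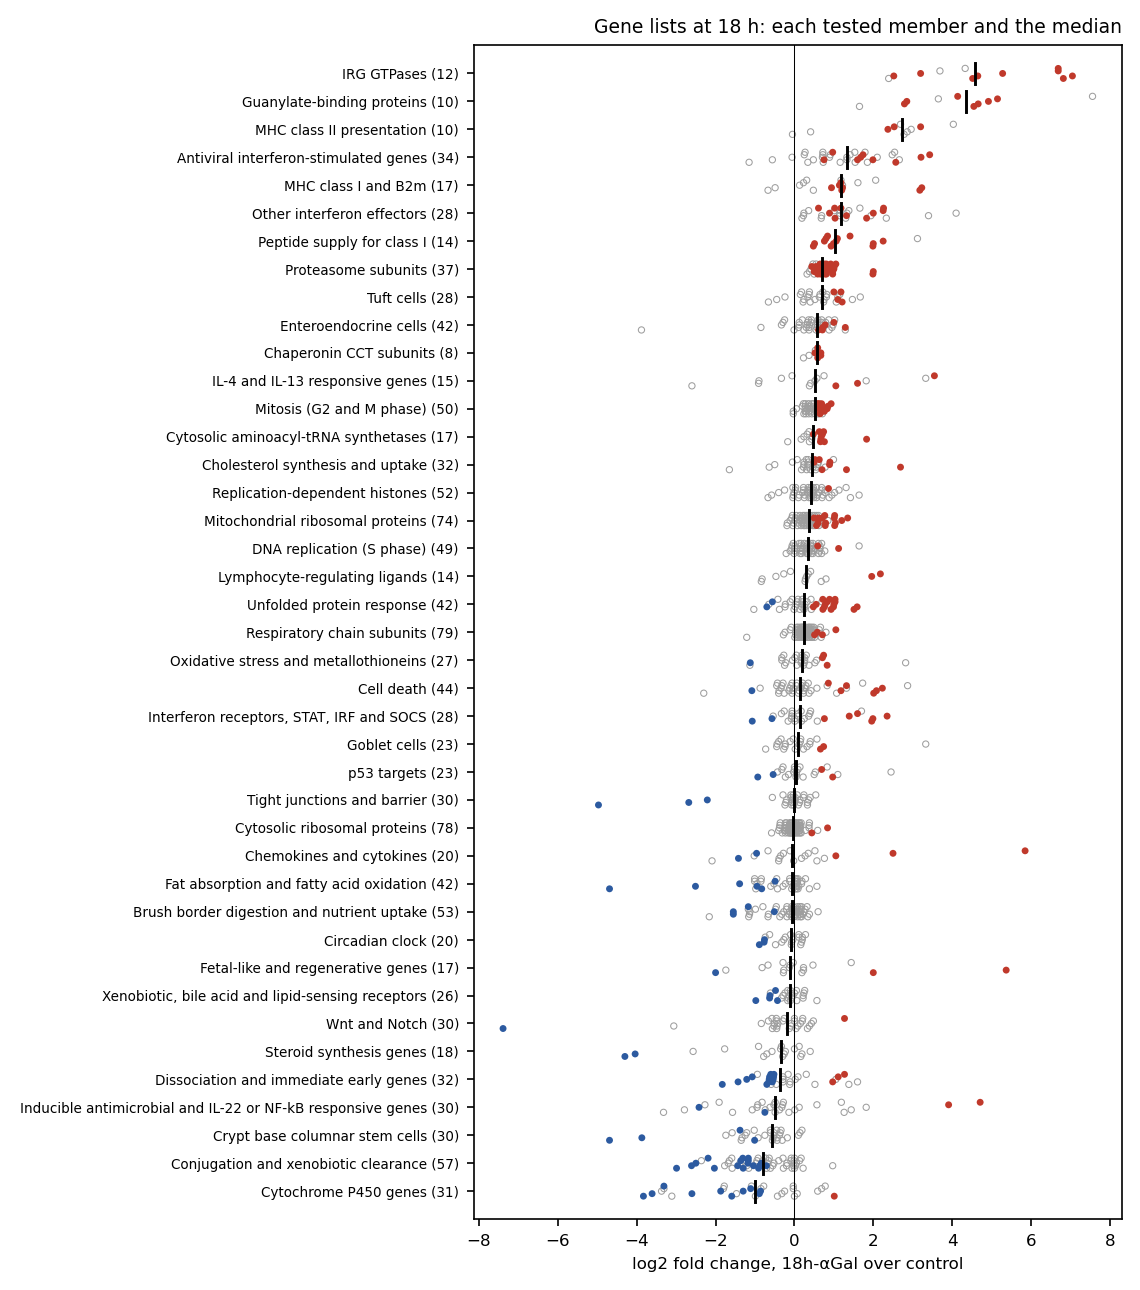
Each row is a list or family with at least 1 called gene, with the number of tested members in parentheses, and each point is a member placed by its log2 fold change in 18h-αGal over control. Filled red and blue points are genes called higher and lower, open points were not called, and the black bar is the list median. IRG GTPases have the highest median, 4.58, and cytochrome P450 genes the lowest, -0.99.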

How the data were processed

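Crypt IECs were sequenced in 9 libraries (control, 18h-αGal and 72h-αGal, 3 each), ribodepleted, strand-directional and read at 100 bases. The authors aligned reads with HISAT2 and deposited raw counts per gene and normalised counts, and their processing notes also name featureCounts, Subread and DESeq2. The deposited normalised counts, a signal per gene, equal the raw counts divided by DESeq2 size factors. The labels' processing notes name GRCm38 (mm10), whereas the study's methods name GRCm39, so no coordinates of genes are given. The annotation release and the strand setting of the counting are not given in the sources used here. Gene names were taken from GENCODE vM39 (28480 of 29288 IDs matched) and 808 IDs had no name.

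Raw counts of all 9 libraries were fitted with edgeR 4.0.16 (R 4.3.3) by its robust quasi-likelihood test after filterByExpr and TMM scaling. The contrast was 18h-αGal minus control, and genes were called at a Benjamini-Hochberg adjusted p under 0.05. The ± after a log2 fold change is the standard error, computed from the F statistic. The fits were tested on simulated counts. The methods give 3 mice per group, and the 3 libraries of a group were taken as 1 mouse each, although the labels do not tie libraries to animals. Library totals ranged from 8887861 to 32722293 counts, so low genes are least precise in control replicate 3. TPM was computed from the raw counts and exon lengths for marker genes. Alternatives were other scalings, filters, tools (DESeq2 1.42.0 and limma 3.58.1), a replicate block, a fit of the 6 libraries alone and the omission of each library.

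The comparison, the lists and the rules were chosen with earlier results of these data known. Named genes were, in each direction, the 12 with the largest change among called genes with a mean of at least 100 normalised counts and no overlap, and 10 by the same rule outside the lists. They also were up to 5 called members of each list with the smallest p, 8 called genes per direction with the highest count per kilobase, and genes that the study measured by qPCR. Members that complete a small count, marker genes and genes of the printed ERSE windows were named after their values were seen, as were 7 families chosen by symbol. Some genes that these rules name are not reported here. Shared words are 50-base stretches of a gene's transcripts found in another gene.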

Additional observations from a re-analysis of the deposited data

Results flagged for a closer look

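Chga, Chgb and Tac1, which enteroendocrine cells express, were called higher at 18 h and lower at 72 h against the controls, and no other tested gene was called in opposite directions at both times with a called difference between them. Both times are compared with the same controls, which were sampled at 18 h, so time after injection and group cannot be told apart at 72 h. The fold change of 72h-αGal minus 18h-αGal does not compare with the controls. They were part of the same fit, however, and so of the filter, the scaling and the estimate of the spread behind its adjusted p. Chga, which encodes chromogranin A, had 562, 456 and 370.1 normalised counts at 72 h, below all 18 h values of 1329.8, 1435 and 1897. Its difference of 72h-αGal minus 18h-αGal was -1.74 ± 0.17 (adjusted p = 5.93e-05, edgeR). Against the controls it was 0.61 at 18 h (adjusted p = 0.0469) and -1.13 at 72 h (adjusted p = 0.039). Chgb had 1323, 1460.4 and 1136 normalised counts at 72 h, and its difference between the times was -1.78 ± 0.16 (adjusted p = 3.76e-05, edgeR). Tac1, the precursor gene of substance P, had 152, 130.1 and 158 normalised counts at 72 h against 634, 668 and 769 at 18 h and 459, 485 and 319 in the controls. The difference between the times for Tac1 was -2.22 ± 0.21 (adjusted p = 5.59e-05, edgeR). Against the controls Tac1 was 0.71 at 18 h (adjusted p = 0.0495) and -1.52 at 72 h (adjusted p = 0.017). The call of Tac1 at 18 h was lost in each of the 6 fits that left out a library and in 5 of 10 other alternatives, and those of Chga and Chgb were lost in some fits that left out a library, as given above.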

How the results depend on the processing

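In no alternative did a called gene change the sign of its fold change. Against 1128 genes called, DESeq2 called 1720 (803 higher and 917 lower), the 6 libraries of both groups alone gave 593, and a further threshold of 1 on the absolute log2 fold change left 426. Leaving out 1 library gave between 432 (without 18h-αGal replicate 2) and 1556 (without control replicate 3) called genes, with 489 without control replicate 1 and 681 without control replicate 2. The other alternatives, which were other filters, scalings and tools and the replicate block, gave between 781 and 1527. Replicate numbers are shared across groups, but the correlations of deviations from the group means were 0.075, 0.050 and 0.088 for equal numbers, each the highest for its library and each below 0.1. The numbers were not taken to pair the libraries, although the third principal component also rose with replicate number in both groups. From replicate 1 to 3 it was -19.8, -5.56 and 3.9 in the controls and -19.41, -1.34 and 11.52 in the 18h-αGal libraries. In the same order library totals fell, from 32722293 to 8887861 counts in the controls and from 30802477 to 14951274 in the 18h-αGal libraries. Whether this component followed depth was not tested. The fit with a replicate block called 781 genes, of which 755 were among the 1128. Medians of 13 lists changed sign in at least 1 alternative, among them those of Paneth, goblet, fetal-like, brush border and chemokine genes.

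The limits are the 3 libraries per group, the uneven depth, and control replicate 3, which lay apart from the other controls in IFN-linked and other lists. Brush border genes summed to 35149 CPM in control replicate 3, against 23409 and 17922 CPM in control replicates 1 and 2. Stem cell genes summed to 5174 CPM in it, against 7675 and 9421 CPM. The controls analysed here were sampled at 18 h. Without the counting settings, overlapping genes cannot be told apart from their partners.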

Other observations

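Long non-coding RNAs were called less often than tested genes as a whole, with 11 higher and 26 lower of 2161 tested. Of all tested genes, 3.27% were higher and 2.69% lower. Other runs of neighbouring genes that fell were Sesn1, Armc2 and Foxo3 on chromosome 10, with log2 fold changes between -2.92 and -0.68, and Oat, Nkx1-2 and Lhpp on chromosome 7, with changes between -5.72 and -1.13. Foxo3 was not called without 18h-αGal replicate 2 (adjusted p up to 0.0515), and Nkx1-2 was not called without control replicates 1 or 2 or 18h-αGal replicates 1, 2 or 3 (adjusted p up to 0.202). Further promoter letters were searched in the called members of other lists. Of the 10 members of the immediate early and tissue dissociation list called lower with a RefSeq promoter, 1 held a CArG box and 2 held a CRE. Of the 4 cholesterol genes called higher with one, 1 held an SRE. Among tested genes with a promoter, 1.66% held a CArG box, 3.36% a CRE and 1.45% an SRE. These small counts do not tie the letters to the changes. Counts of mitochondrially encoded genes made up between 8.55% and 11% of all counts in the controls and between 7.95% and 9.35% in the 18h-αGal libraries.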
